A study of Arabidopsis thaliana and Ginkgo biloba and Brassica rapa with 13 samples.

Results

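The ribosomal RNA of Brassica rapa, a crop of the cabbage family, was compared site by site with that of Arabidopsis thaliana, a member of the same family, for 5-methylcytosine (m5C). All 16 listed rRNA positions were taken, with the B. rapa column set against the A. thaliana column alone. These columns rest on 4 of the 13 libraries of the series, namely 3 A. thaliana and 1 B. rapa bisulfite libraries. Every value is the share of reads that kept a cytosine after bisulfite treatment, which turns unmethylated cytosine into uracil and leaves m5C as it is.

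The A. thaliana plants were wild type of the Columbia ecotype, sampled as whole seedlings 10 days after germination. The B. rapa plants were wild type as well and their material is leaf in the labels and shoot apex in the methods of the study. No age is given for them. Total RNA was used from both, and rRNA positions hold no marker of tissue by which the labels could be checked. Species and tissue changed together, so a difference of species and a difference of tissue cannot be told apart here. The A. thaliana value is the authors' mean of its libraries, and B. rapa had 1 library, so no replicate error stands behind any value and no difference was tested. The depth at each position is unknown.

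m5C in rRNA is made after transcription by methyltransferases that each recognise a given cytosine. In yeast, Rcm1 and Nop2 methylate cytosines of the nuclear large subunit rRNA near the functional core of the ribosome, and NSUN5 is the plant relative of Rcm1. Plant cells also hold ribosomes in chloroplasts and mitochondria, whose rRNAs descend from bacterial ones. In Escherichia coli, RsmB methylates a cytosine in a loop of the small subunit rRNA close to the P site, and RlmI methylates one in the large subunit rRNA.

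The chloroplast 16S and mitochondrial 18S references of B. rapa were the large ones read as its own sequence, because its lines for the other 4 of 6 large rRNAs repeat letter for letter the sequences given for Ginkgo biloba, another species of the series. The surroundings of the called site in each are shown first, since the largest differences in level lie there. Each window runs 20 bases to either side of the site, 5′ to 3′. Capitals mark the site itself at the centre and every base that differs between the references, including A. thaliana bases with no counterpart in the B. rapa reference.
A. thaliana chloroplast 16S C916: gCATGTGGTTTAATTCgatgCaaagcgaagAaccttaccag
B. rapa chloroplast 16S C916: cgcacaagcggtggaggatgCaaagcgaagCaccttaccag
A. thaliana mitochondrial 18S C960: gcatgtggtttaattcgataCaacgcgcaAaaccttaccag
B. rapa mitochondrial 18S C960: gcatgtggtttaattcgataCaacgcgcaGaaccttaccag

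Positions are counted from 1 at the 5′ end of the A. thaliana reference of each rRNA. The B. rapa chloroplast reference carries the site at its own position 901, and the mitochondrial one at 960. In the chloroplast window, the B. rapa reference lacks a run of bases that ends 5 bases upstream of the site. Its bases to the left of that point are those found further upstream in A. thaliana. The mitochondrial windows differ at a single base.

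The same cytosines were called in both species. A called site is one at or above 20%, the threshold of the study. A. thaliana had 7 called sites and B. rapa had 7, and no site was called in only one of them (0 of 16). They lie in nuclear 25S, chloroplast 16S and 23S, and mitochondrial 18S and 26S rRNA. At the 7 shared sites the level was higher in B. rapa at 5, lower at 1 and equal at 1. The other 9 positions are listed because a further species of the series was called there. Of the 16 positions, 11 had a percentage in both species, and 5 are listed with a base other than cytosine in B. rapa.

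**Figure D1:**
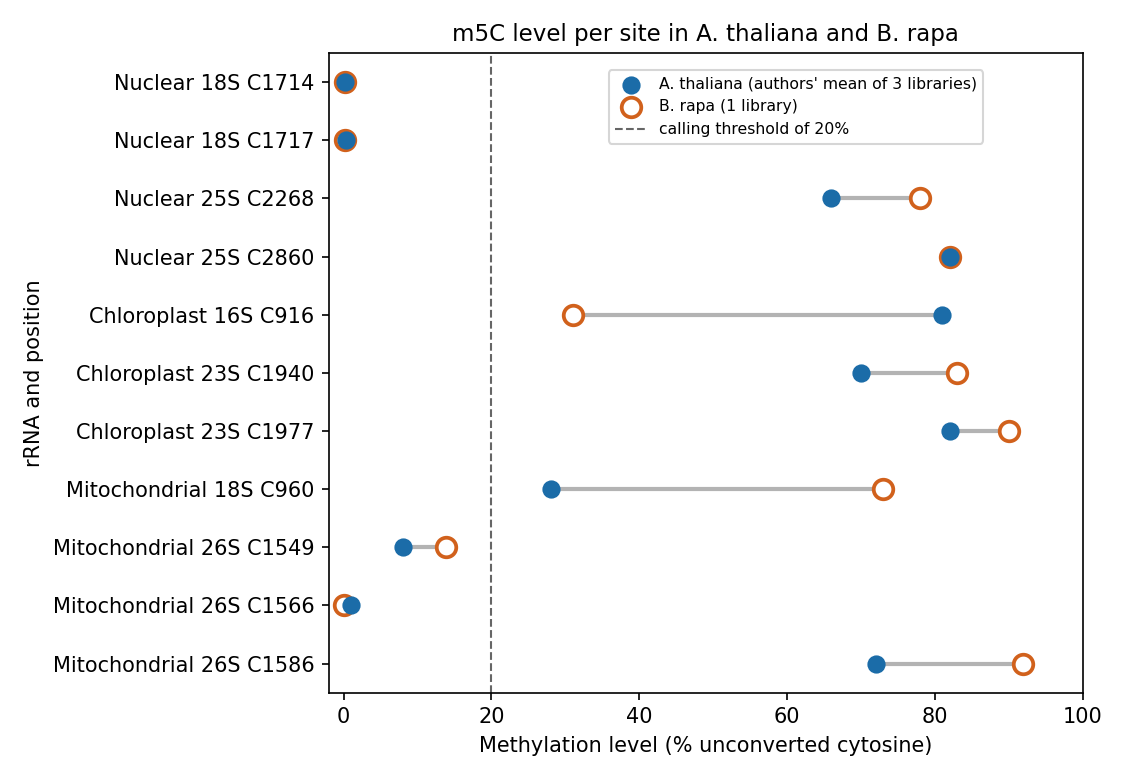
Methylation level in percent (horizontal axis) at the 11 sites with a percentage in both species (vertical axis), with filled points for the A. thaliana mean of 3 libraries, open points for the single B. rapa library and a dashed line at the threshold of 20%. Chloroplast 16S C916 and mitochondrial 18S C960 have the longest connecting bars, of 50 and 45 percentage points in opposite directions, and no bar crosses the threshold.

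The nuclear 25S rRNA held the only called site without a difference. C2860 was 82% in A. thaliana and 82% in B. rapa. C2268, which NSUN5 methylates in A. thaliana, was 66% and 78%, a difference of 12 percentage points. The A. thaliana bases around this pair are shown with the site in capitals, since no B. rapa sequence could be set beside them.
A. thaliana nuclear 25S C2268: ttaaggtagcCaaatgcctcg
A. thaliana nuclear 25S C2860: tttgatccttCgatgtcggct
In TAIR10.1 the cytosines lie on the plus strand at chr2:8412-8412 and chr2:9004-9004, with a second copy at chr3:14202383-14202383 and chr3:14202975-14202975, and no rRNA gene is annotated over either copy.

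In the chloroplast 23S rRNA both sites were somewhat higher in B. rapa. C1940 was 70% in A. thaliana and 83% in B. rapa, and C1977 was 82% and 90%. C1977 is the counterpart of the cytosine that RlmI methylates in E. coli. The order was the same in both species, with C1940 below C1977. Read as the share that was converted, C1940 left 30% against 17% and C1977 left 18% against 10%. On the plus strand of the TAIR10.1 chloroplast genome, C1940 lies at 106630 and C1977 at 106667, inside the annotated 23S rRNA gene. The inverted repeat copy has them on the minus strand at 132019 and 131982.

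C916 of the chloroplast 16S rRNA went the other way and was the only called site lower in B. rapa. It was 81% in A. thaliana and 31% in B. rapa, a difference of 50 percentage points and the largest of the 7. This cytosine is the chloroplast counterpart of the one methylated by RsmB in E. coli. It was the lowest called site of B. rapa, while in A. thaliana only C1977 and C2860 were higher, both at 82%. In TAIR10.1 it lies at 101927 on the plus strand of the chloroplast genome, within the 16S rRNA gene, and at 136722 in the minus strand copy.

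The mitochondrial sites above the threshold were higher in B. rapa, and by more than those of the nuclear 25S or the chloroplast 23S. C960 of the 18S rRNA was 28% in A. thaliana and 73% in B. rapa, a difference of 45 percentage points. C1586 of the 26S rRNA was 72% and 92%, a difference of 20 points, so that the converted share was 28% against 8%. C960 was the lowest called site of A. thaliana and C1586 the highest of B. rapa. On the minus strand of the TAIR10.1 mitochondrial genome, C960 lies at 127264 in the 18S rRNA gene and C1586 at 141693 in the 26S rRNA gene.

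A pair of mitochondrial 26S positions stayed below the threshold in both species. C1549 was 8% in A. thaliana and 13.8% in B. rapa, the nearest values under the threshold in either column. C1566 was 1% and 0%. The nearest values above the threshold were 28% at C960 in A. thaliana and 31% at C916 in B. rapa. C1549 and C1566 lie at 141730 and 141713 of the same mitochondrial gene.

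Grouped by genome of origin, the median absolute difference over called sites was 6 percentage points in nuclear rRNA (2 sites), 13 in chloroplast rRNA (3 sites) and 32.5 in mitochondrial rRNA (2 sites). With uncalled sites that have a percentage in both species included, it was 0.0812, 13 and 12.9 points, so the mitochondrial value no longer stood above the chloroplast one. Over all 7 called sites it was 13 points. Without C916 and C960, the remaining 5 sites differed by 0 to 20 points with a median of 12, and none of the 5 was lower in B. rapa. The median level over the 7 sites was 72% in A. thaliana and 82% in B. rapa. With so few sites per genome these medians are a description, and no test was made.

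The nuclear 18S positions carried little signal in either species. The sequence shown is the A. thaliana 18S rRNA from position 1698 to 1722, chosen because it holds the only positions at which the table gives the species different bases. Its capitals mark the 6 listed positions.
A. thaliana nuclear 18S: gtgggTggttcgccgCCCGCgacgt
At C1714 the level was 0.145% in A. thaliana and 0.166% in B. rapa, and at C1717 it was 0.300% and 0.158%. C1713 and C1715 were 0.218% and 0.127% in A. thaliana. B. rapa is listed with T at both (C1713T and C1715T, the A. thaliana base first). These letters could not be checked against a B. rapa sequence. Its 18S line repeats the G. biloba one and holds 1811 bases, against a listed length of 1806. Both species share T at 1703 and G at 1716. The listed positions run over chr2:5408-5422 of TAIR10.1 on the plus strand, in the 18S rRNA gene AT2G01010, with a second copy over chr3:14199379-14199393 in AT3G41768. Position 1887 of the chloroplast 23S rRNA has A in both species.

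The listed 18S cytosines were thus almost fully converted in both species. The 4 nuclear 18S percentages that A. thaliana has and the 2 of B. rapa all lay between 0.127% and 0.300%. The small rRNAs add no called site, since the 5 lines of each species state 0 sites for every one. The stated numbers over all rRNAs sum to 7 sites in each species, as in the percentages. Among the 360 cytosines of the A. thaliana chloroplast 16S reference and the 359 of the B. rapa one, a single cytosine each was called. In the mitochondrial 18S it was 1 of 441 and 1 of 420. How many of these reference cytosines had enough reads for a call is unknown.

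The chloroplast 16S references were then compared over their whole length. A. thaliana has 1491 bases and B. rapa 1476, and outside 1 block and 1 base they were identical. The block is a run of 15 bases, positions 897 to 911, that the B. rapa line does not hold. It reads catgtggtttaattc in A. thaliana, at 101908 to 101922 of the TAIR10.1 chloroplast genome. The single substitution is A926C, 10 bases downstream of the site, a transversion. All 16 differing positions of this rRNA therefore fall within 30 bases of C916. Identity was 98.9% with the block counted, 99.9% without it, and 65% over the 10 bases on each side of the site.

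The block and the substituted base were looked up in the other references. Durum wheat (T. durum) has the 15 bases unchanged, G. biloba and the alga N. oculata have 14 of them, and the alga C. taxifolia has 13, with no gap in any. The same 15 bases occur once in the mitochondrial 18S rRNA of A. thaliana and once in that of B. rapa, at position 941 in both. At position 926 the other 4 species have A, as A. thaliana does. The B. rapa line is marked as built with a Brassica napus chloroplast sequence as guide. Whether the block is absent from the B. rapa rRNA itself or only from this reference was not tested. The low B. rapa level at C916 comes with a reference that departs from A. thaliana only around that cytosine. The part of the reference in the level was not tested.

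**Figure D2:**
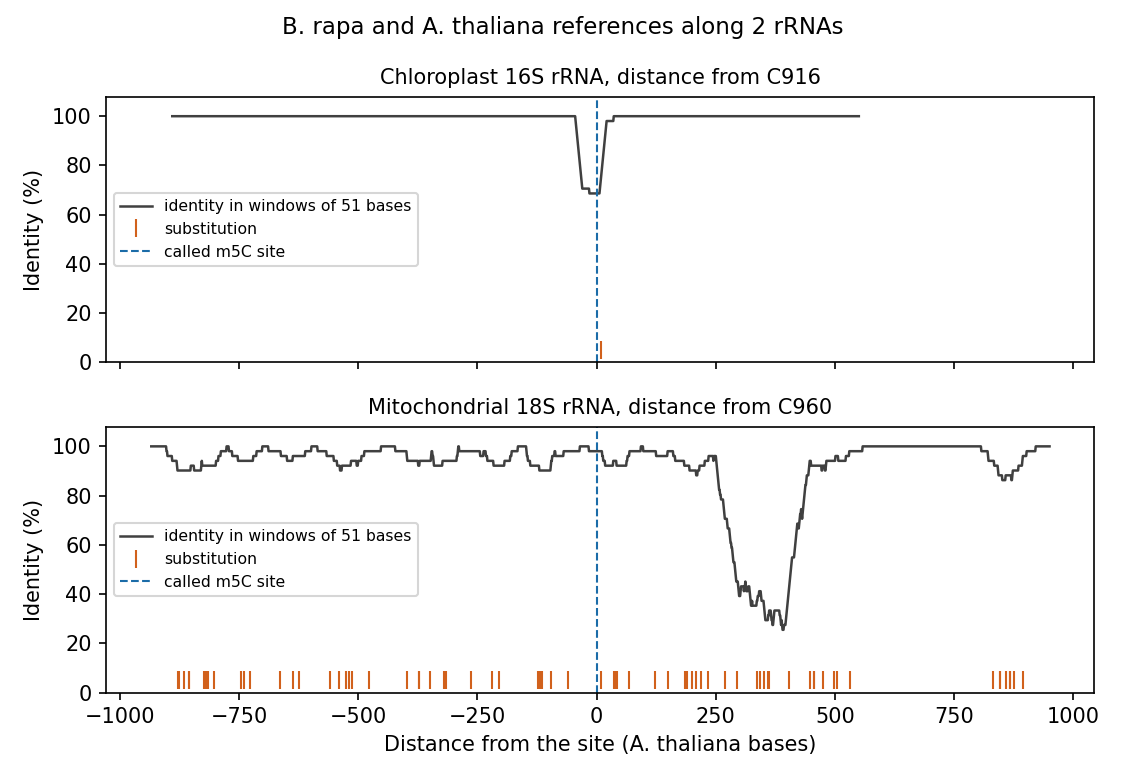
Identity in percent between the B. rapa and A. thaliana references in windows of 51 bases (vertical axis) against the distance in A. thaliana bases from C916 of the chloroplast 16S (upper panel) or C960 of the mitochondrial 18S rRNA (lower panel), with orange ticks for substitutions and a dashed line at the called site. The chloroplast line is at 100% except around the site, whereas the mitochondrial line varies along its length and falls below 80% between 261 and 435 bases downstream.

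The mitochondrial 18S reference showed the opposite arrangement, with many differences along the rRNA and few at the site. B. rapa has 1848 bases against 1935 in A. thaliana. The alignment held 73 substitutions, of which 34 were transitions and 39 transversions, with 90 A. thaliana bases absent from B. rapa and 3 B. rapa bases absent from A. thaliana. Identity was 91.4% with gaps counted and 96.0% without them. Most of the missing bases, 88 of the 90, lay in 1 variable stretch between positions 1221 and 1395, where identity was 45.1%. How the bases pair inside that stretch depends on the aligner. Outside it, identity was 96.2%.

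Around C960 itself the species were almost the same. Only A969G, 9 bases downstream, differed within 30 bases on either side, and the next difference upstream was 61 bases away. Flank identity was 95% over 10 bases on each side and 98.3% over 30 bases. The B. rapa reference of this rRNA is a public database sequence, not one guided by a relative. The 45 points between 28% and 73% were measured at cytosines with nearly identical sequence within 30 bases on either side. The part of the reference in this difference was not tested.

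Differences between cytosine and thymine matter for the alignment, because bisulfite reads were placed on references with every cytosine turned into thymine. Of the 441 cytosines of the A. thaliana mitochondrial 18S, 401 were cytosine in B. rapa (90.9%), 11 were thymine, 11 were A or G and 18 had no counterpart. Counting both directions, 18 of the 73 substitutions were between C and T and vanish on conversion. Of the 360 cytosines of the chloroplast 16S, 358 were kept and 2 fell in the missing block, and none was thymine in B. rapa.

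Because chloroplast and mitochondrial rRNAs are both of bacterial descent, their called positions could be matched. C916 of the chloroplast 16S aligned with C960 of the mitochondrial 18S in A. thaliana and in B. rapa. In the large subunit of A. thaliana, chloroplast C1940 aligned with mitochondrial C1549, and C1977 with C1586. C1566 aligned with a chloroplast cytosine at position 1957 that is not among the listed sites. The pairs of listed large subunit sites are printed with the aligned cytosine in capitals, so that the likeness between organelles can be seen.
A. thaliana chloroplast 23S C1940: tataacggtcCtaaggtagcg
A. thaliana mitochondrial 26S C1549: tctaactgtcCtaaggtagcg
A. thaliana chloroplast 23S C1977: aagttccgacCcgcacgaaag
A. thaliana mitochondrial 26S C1586: aagtagcgacCtgcacgaatg

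At the aligned pair of the small subunit the organelles were in opposite order in the species. A. thaliana had 81% at chloroplast C916 and 28% at mitochondrial C960. B. rapa had 31% and 73%. The mitochondrial level minus the chloroplast level was -53 percentage points in A. thaliana and 42 in B. rapa.

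In the large subunit, the chloroplast was well above the mitochondrion at 1 pair in both species, and the organelles were close at the other. At C1940 and C1549 the chloroplast level was the higher in both species, with 70% against 8% in A. thaliana and 83% against 13.8% in B. rapa. At C1977 and C1586 the levels were 82% and 72% in A. thaliana, and 90% and 92% in B. rapa. The mitochondrial level minus the chloroplast level at this pair was -10 points in A. thaliana and 2 in B. rapa. The B. rapa order at this pair rests on 2 points in 1 library and was not tested.

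**Figure D3:**
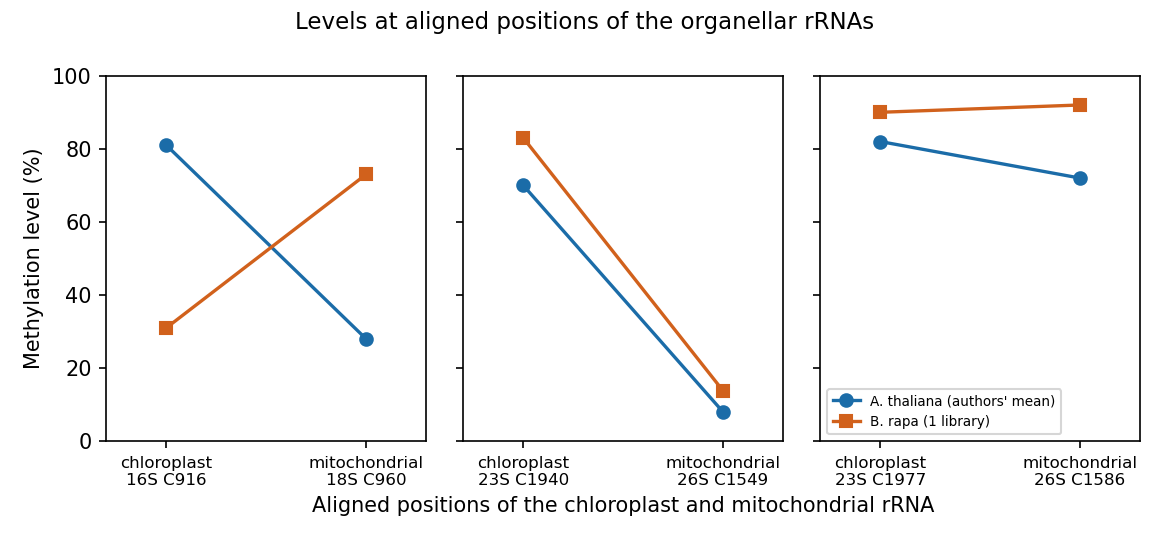
Methylation level in percent (vertical axis) at 3 aligned positions of the chloroplast and mitochondrial rRNAs (horizontal axis), with blue circles for the A. thaliana mean of 3 libraries and orange squares for the single B. rapa library. The lines cross between C916 and C960, run together from C1940 down to C1549, and stay between 72% and 92% at C1977 and C1586.

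How alike the organellar sequences are bears on where a read can be placed. In A. thaliana, 54 of the 60 bases around C916 and C960 were the same in both organelles, 29 of the 30 upstream and 25 of the 30 downstream. The exact run through the site was nonetheless 3 bases long, also after conversion. In B. rapa, 25 of the 30 downstream bases were the same, and upstream the missing block left 8 of 30 matching without a gap. Around C1940 and C1549 of A. thaliana, 54 of 60 bases were the same with an exact run of 27 bases. Around C1977 and C1586 it was 46 of 60, with a run of 5 bases that became 13 after conversion. The part of reads placed on the wrong organelle was not tested.

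The size of the differences was finally set against the other species, over the 6 sites called in all of them. Mitochondrial C960, which differed by 45 points between A. thaliana and B. rapa, is not among these 6. The mean absolute difference between A. thaliana and B. rapa was 17.2 percentage points, against a median of 11 over the 15 pairs of species and a lowest value of 3.67. It was the largest of the 15 by this measure, but rank 10 when every site with a percentage in both species of a pair was counted, at 14.1 points. Without C916 it was 10.6 points and second to A. thaliana with T. durum at 14.4, while the median of the pairs was 5.8. Ranks 3 and 4 were also pairs with A. thaliana, at 9.8 points with C. taxifolia and 9.4 with G. biloba. A. thaliana with N. oculata was at 7.2. Still without C916, B. rapa was closer to those species. It lay 3.8 points from T. durum, 3.2 from C. taxifolia, 2.8 from G. biloba and 5.4 from N. oculata. With C916 counted, A. thaliana was the closer to N. oculata (7 points against 13.8) and to G. biloba (8.33 against 11.2). B. rapa stayed the closer to T. durum (10.7 against 12.8) and to C. taxifolia (4.67 against 14.5). The C. taxifolia reference has no gap at the block beside C916, and the part of the references in these means was not tested. At the 5 sites left without C916, the B. rapa and G. biloba reference lines are identical. The lengths listed for B. rapa with the percentages do not match those lines. For 25S they are 3388 bases listed and 3393 in the line, for 23S 2810 and 2801, and for 26S 2531 and 2519. Which sequences the B. rapa reads were placed on is therefore unknown. Pairs share species and the sites are few, so the order is a description without a test.

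**Figure D4:**
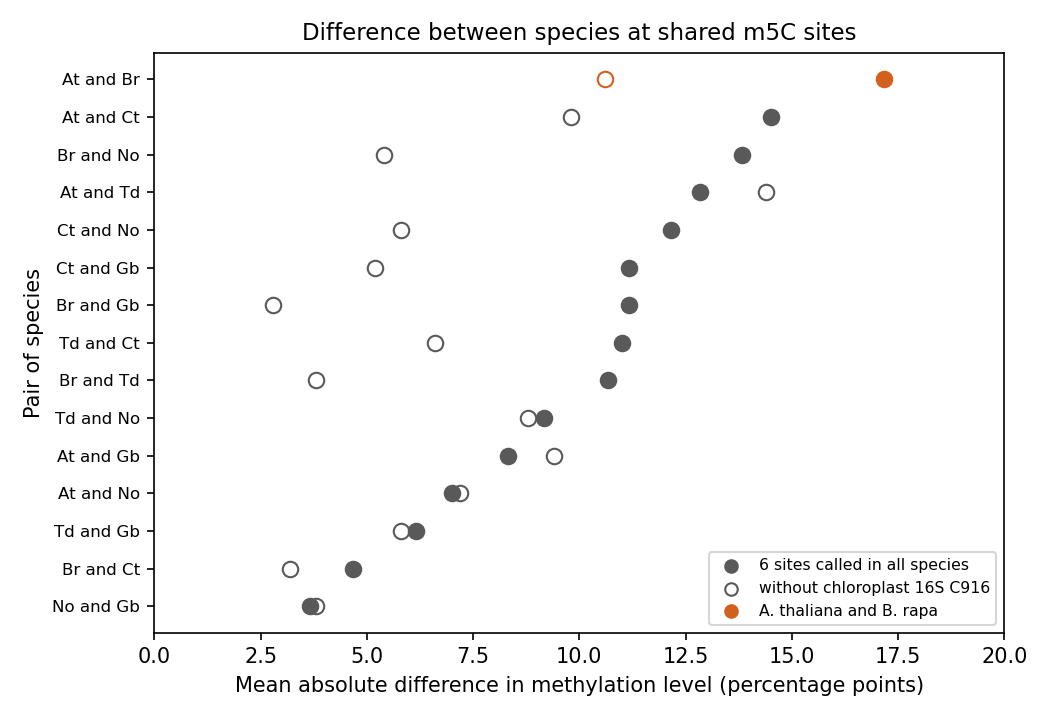
Mean absolute difference in methylation level in percentage points (horizontal axis) for each of 15 pairs of species (vertical axis; At, A. thaliana; Br, B. rapa; Td, T. durum; Ct, C. taxifolia; No, N. oculata; Gb, G. biloba), with filled points for the 6 sites called in all species and open points without C916. The A. thaliana and B. rapa pair, in orange, moves from 17.2 to 10.6 points without C916. Mitochondrial C960 is not among the 6 sites.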

How the data were processed

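RNA bisulfite sequencing was done on total RNA. The authors trimmed and aligned reads in CLC Genomics Workbench, version not given in the sources used here, to references with cytosine turned into thymine in silico. The deposited percent methylation is mapped cytosines divided by mapped cytosines and thymines, without further normalization, and the A. thaliana column is the authors' mean of 3 libraries. The other deposited file holds reference sequences and the number of called sites. Read depth was not analysed here, so no interval was attached. A spike-in RNA without m5C was the conversion control of the authors.

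The percentages were used as deposited. References were aligned globally in Biopython 1.88, scoring 2 for a match, -3 for a mismatch, -5 to open a gap and -2 to extend it, with end gaps free, tested on simulated substitutions and a simulated deletion. MAFFT 7.526 with local pairs was an alternative, as were other thresholds, flank widths and sets of sites. Identity counts a gap as a difference unless stated. A. thaliana sites were placed on TAIR10.1 by exact matches of 41 bases. TAIR10 is the build in the submitters' processing notes, while coordinates here are of TAIR10.1. Every listed site and large rRNA is named, whatever its value. Members, lists and comparisons were chosen with earlier results of these data known. The references of B. rapa are guided by sequences of relatives, except for a public mitochondrial sequence. RNA-seq libraries entered only through the references.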

Additional observations from a re-analysis of the deposited data

Results flagged for a closer look

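At the aligned pair of small subunit sites, the mitochondrial level minus the chloroplast level was -53 percentage points in A. thaliana and 42 in B. rapa. The contrasts have opposite signs and lie 95 points apart. The A. thaliana contrast comes from the authors' means and the B. rapa one from 1 library, and the difference was not tested. C916 of the B. rapa contrast is the site beside the 15 bases that its reference lacks.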

How the results depend on the processing

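Other settings were tried 37 times, and 2 of these were added once the data had been seen. The value held in 16, which for a count of sites means within 1.5 times. The shared called sites numbered 7 at a threshold of 10%, 6 at 30% and 5 at 50%. The median absolute difference of 13 points became 8 over all sites with a percentage in both, 12.5 without C916, 12.5 without C960 and 12 without both, and the mean was 21.1. With all percentages counted, the nuclear median was 0.0812 points and the mitochondrial one 12.9, since more positions near 0 enter. Identity of the chloroplast 16S was 99.9% without gap columns and 96.8% within 250 bases of C916, the last added once the data had been seen. Flank identity at C916 was 60% over 20 bases and 73.3% over 30 bases on each side, and at C960 it was 97.5% and 98.3%. Identity of the mitochondrial 18S was 90.0% with MAFFT, 96.0% without gap columns, 92.4% with cytosine turned into thymine, 88.9% with gap opening -10 and extension -1, and 95.0% within 250 bases of C960, the last likewise added. The A. thaliana and B. rapa pair, rank 1 of the species pairs, was rank 10 over all percentages, 2 without C916 and 2 by medians. Except over all percentages, these ranks leave out C960. C916 aligned with mitochondrial C960 in each species under all 3 aligners tried.

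Leaving out each A. thaliana library was not run, since only their mean is given. No paired analysis was possible because the B. rapa column holds 1 library. Depth per position is unknown, so no alternative coverage minimum was run.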
